A study of Mus musculus with 6 samples.

Results

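Elastic fibre and microfibril genes encode the proteins of the extensible matrix that lets the lung stretch and recoil. The group described here was fixed by name as 10 genes, *Eln*, *Fbn1*, *Fbn2*, *Fbln1*, *Fbln2*, *Fbln5*, *Fbln7*, *Mfap4*, *Mfap5* and *Lox*, and each of the 10 was found at 1 locus among the 24402 loci of the deposited table of all loci. RNA-Seq was carried out on whole lungs of mouse embryos of the C57BL/6 strain at 12.5 *dpc* (days post coitus), with 3 wild-type (control) libraries and 3 *Yap* mutant libraries. The mutants were Yap-flox/flox; Shh-Cre/+ embryos and the controls were their wild-type littermates. In the mutants, Cre is made from the *Shh* gene and removes *Yap* from the lung epithelium, while *Yap* in the mesenchyme stays intact. The same allele leaves 1 working copy of *Shh*, so an effect of lower *Shh* dosage cannot be told apart from an effect of *Yap* loss. The comparison asks how the lung transcriptome differs when the epithelium lacks YAP, the transcriptional coactivator at the end of the Hippo pathway.

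An elastic fibre has a core of elastin, laid down on a scaffold of microfibrils. Fibrillins build the microfibrils, fibulins and microfibril-associated proteins bridge tropoelastin, fibrillin and the cell surface, and lysyl oxidases cross-link tropoelastin into an insoluble polymer. In the developing lung these proteins are made mostly by mesenchymal cells, airway and vascular smooth muscle, endothelium and mesothelium, and elastin deposition increases greatly later, when alveoli form.

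The deposited table gives 1 FPKM value per genotype (fragments normalised for transcript length and sequencing depth), which the authors summarised over the 3 libraries. No spread between libraries and no depth per library could be had, so no difference below carries an error or a test, and neighbouring levels cannot be called different or equal. A difference of at least 1.5-fold (0.58 on the log2 scale) with a mean over both genotypes of 1 FPKM or more is called past the fold threshold here. Of 12716 loci with such a mean, 586 (4.61%) were higher and 440 (3.46%) were lower in *Yap* mutant lungs past that threshold. The median log2 ratio of all these loci was -0.01.

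*Fbln7* and *Fbln5* were the 2 members past the threshold, both lower in *Yap* mutant than in control lungs, and 0 members were higher past it. *Fbln7* stood at 26.8% and *Fbln5* at 45.2% of the control value. *Mfap4* and *Eln*, both among the 3 most abundant members in control lungs, stood at 70.2% and 71.7%. *Fbln2* went the other way, to 149.9% of control, just short of the threshold. The fibrillin genes and *Fbln1* lay between 93.7% and 107.6% of control. Because RNA came from whole lungs, fewer cells of a type and less RNA per cell cannot be told apart in any of these values.

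Of the 10 members, 9 averaged 1 FPKM or more and *Mfap5*, at 0.984 FPKM, did not. *Fbln7* had such a mean through its control value alone, since its mutant value was 0.664 FPKM. Among the 9, whatever the size of the difference, 7 lay below and 2 above the control value, with a median log2 ratio of -0.26, while 51.8% of all loci with such a mean were lower. Over all 10 members the median log2 ratio was -0.18. The threshold counts of 2 lower and 0 higher members stand against a background of 3.46% and 4.61% of loci. At a lower threshold of 0.32 on the log2 scale, 4 members were lower (*Eln* and *Mfap4* as well) against 6.95% of loci, and 1 was higher (*Fbln2*) against 9.99%.

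**Figure D1:**
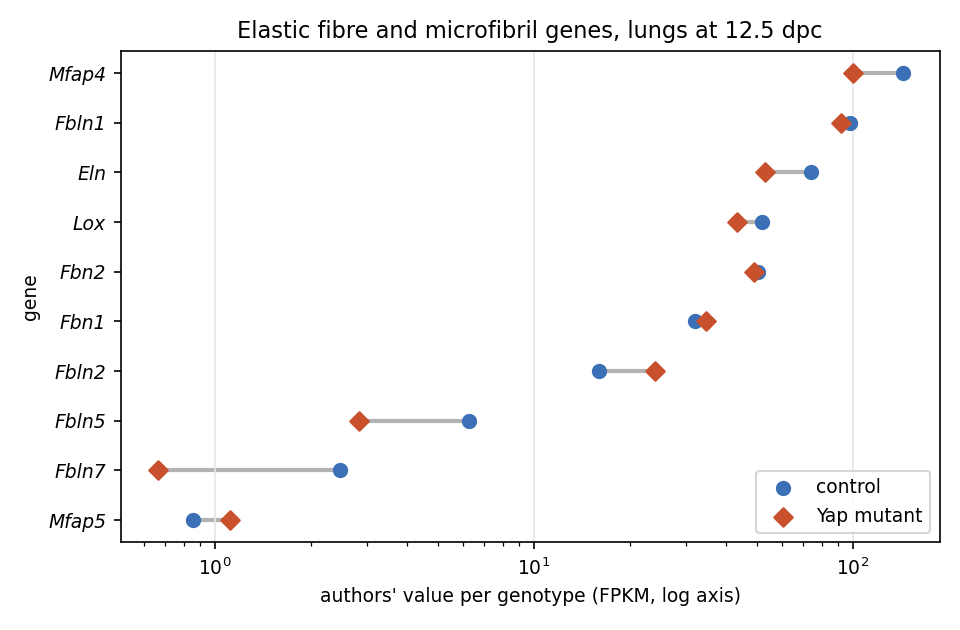
Authors' FPKM value of each of the 10 genes (log axis) in control lungs (circles) and *Yap* mutant lungs (diamonds) at 12.5 *dpc*, ordered by the control value, with a grey line joining the values of a gene. *Fbln7* and *Fbln5* show the widest gaps towards lower mutant values, and *Fbln2* the widest gap towards a higher one.

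**Figure D2:**
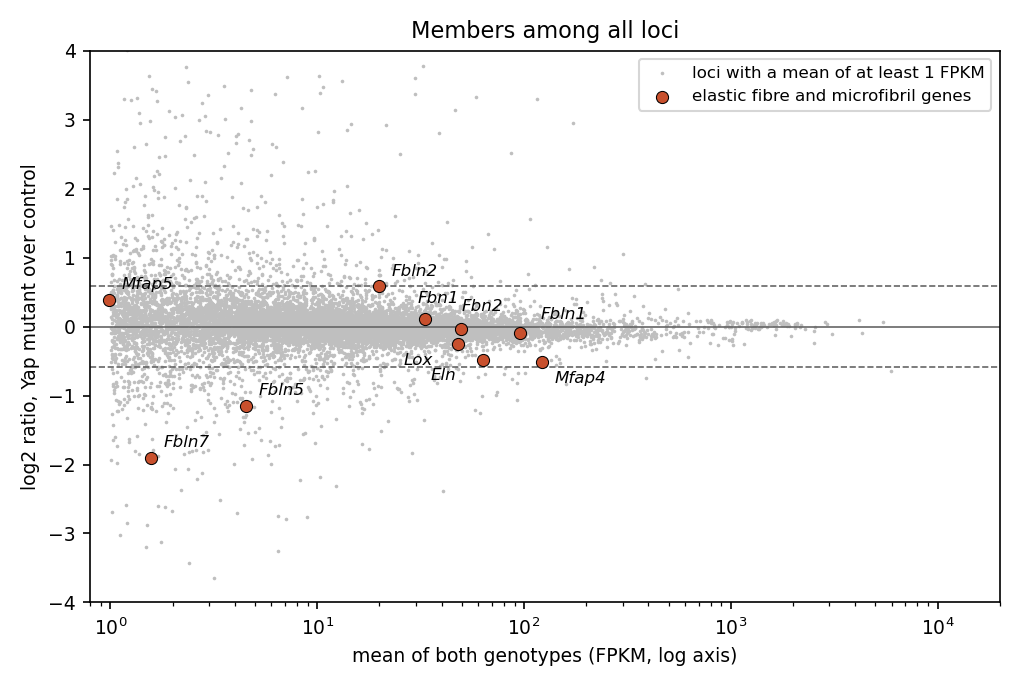
Log2 ratio of *Yap* mutant over control against the mean FPKM of both genotypes (log axis) for loci that average 1 FPKM or more (grey) and the 10 members (red), with dashed lines at 1.5-fold. *Fbln7* and *Fbln5* lie below the lower line and *Fbln2* touches the upper one, and 18 grey loci lie beyond the plotted limits of 4. A further 15 loci at 0 in 1 genotype have no finite ratio and are not plotted.

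Since *Fbln5* and *Fbln7* were the members past the threshold, the 250 bases before their transcription starts are shown, from RefSeq on GRCm38.p6, read 5′ to 3′ on the strand of the gene. Each window ends at the outer edge of the gene's locus in the deposited table and holds no exon of the GENCODE M21 annotation. The *Fbln5* window is chr12:101819120-101819369 on the minus strand, and the *Fbln7* window is chr2:128863682-128863931 on the plus strand, where it lies in an intron of a longer annotated *Fbln7* transcript. Capitals mark, on either strand, matches to GGAATG (the core of the site bound by TEAD factors, the DNA-binding partners of YAP), CCAAT and GGGCGG (the GC box).
Fbln5: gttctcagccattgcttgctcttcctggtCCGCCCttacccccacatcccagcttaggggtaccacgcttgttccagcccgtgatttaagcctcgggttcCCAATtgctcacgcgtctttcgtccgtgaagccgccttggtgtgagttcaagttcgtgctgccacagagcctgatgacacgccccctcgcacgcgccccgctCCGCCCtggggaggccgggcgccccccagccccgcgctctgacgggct
Fbln7: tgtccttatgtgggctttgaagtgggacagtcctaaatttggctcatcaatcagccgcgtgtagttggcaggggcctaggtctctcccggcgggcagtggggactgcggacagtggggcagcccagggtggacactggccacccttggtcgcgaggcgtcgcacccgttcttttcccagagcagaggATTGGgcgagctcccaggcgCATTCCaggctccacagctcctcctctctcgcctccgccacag

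The *Fbln7* window holds 1 match to GGAATG, which begins 43 bases before the start, and 1 to CCAAT. The *Fbln5* window holds 0 matches to GGAATG, 1 to CCAAT and 2 to GGGCGG. Neither window had a match (0 each) to TATAAA or to the CArG box, the element bound by serum response factor in smooth muscle genes. No pair of these matches overlaps. Of 32851 RefSeq promoter windows of the same length, 12.6% hold GGAATG, 33.8% CCAAT, 32.7% GGGCGG, 12.4% TATAAA and 1.47% a CArG box. Both windows are rich in G and C, at 65.2% for *Fbln5* and 63.2% for *Fbln7*, beside a median of 52.4% over all windows. Another RefSeq start of *Fbln5* lies 635 bases inside the locus. Its window, not shown because it overlaps an annotated exon, has 49.6% G and C and 0 matches to each of these strings. A match is a string of letters in a window and not a binding site, and binding by YAP or TEAD was not analysed here.

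Fibrillins, the backbone of the microfibril, differed little between the genotypes. *Fbn1*, which encodes fibrillin-1 (chr2:125300594-125506438, minus strand), measured 32.1 FPKM in controls against 34.6 FPKM in mutants, a log2 ratio of 0.11. *Fbn2*, the fibrillin gene most active in embryonic tissues, lies at chr18:58008524-58210589 on the minus strand and measured 50.5 and 49.1 FPKM, a log2 ratio of -0.04. *Fbn2* was the more abundant of the pair in both genotypes, with 61.1% of their summed FPKM in control and 58.7% in mutant lungs. The summed fibrillin level was 82.6 FPKM in controls against 83.7 FPKM in mutants. The sign of *Fbn2* is not settled, since it became 0.00 on the positive side when the genotypes' totals were made equal.

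*Eln*, which encodes tropoelastin, the soluble precursor of the elastic core, lies at chr5:134702596-134747481 on the minus strand. It measured 73.8 FPKM in controls against 52.9 FPKM in mutants, a log2 ratio of -0.48. The difference of -20.9 FPKM did not reach the fold threshold, and 570 of the 12716 loci (4.48%) had as low a ratio. In control lungs *Eln* was already more abundant than 91.1% of those 12716 loci. Against the near-level fibrillins, the ratio of *Eln* to *Fbn1* was 2.30 in control and 1.53 in mutant lungs. Ratios between genes of 1 genotype do not depend on how the genotypes were scaled.

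*Lox* encodes the lysyl oxidase that starts the cross-linking of tropoelastin and collagen. It lies at chr18:52516015-52529708 on the minus strand and measured 52.1 FPKM in controls against 43.5 FPKM in mutants, a log2 ratio of -0.26. This is a smaller difference than that of *Eln*. The ratio of *Lox* to *Eln* was 0.705 in control and 0.822 in mutant lungs.

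Among the fibulins, *Fbln5* and *Fbln7* were lower past the threshold, *Fbln2* was higher just short of it and *Fbln1* was nearly level. *Fbln5* encodes a short fibulin that binds tropoelastin and integrins and guides elastin onto microfibrils. It lies at chr12:101746565-101819119 on the minus strand and measured 6.26 FPKM in controls against 2.83 FPKM in mutants, a log2 ratio of -1.15. Of the 12716 loci, 127 (0.999%) had as low a ratio. *Fbln5* was therefore lower relative to its partner *Eln* too, with 0.0848 *Fbln5* per *Eln* in control and 0.0534 in mutant lungs.

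*Fbln7*, a short fibulin with cell adhesion activity, had the lowest ratio of the group. It lies at chr2:128863932-128897135 on the plus strand and measured 2.48 FPKM in controls against 0.664 FPKM in mutants, a log2 ratio of -1.90. Of the 12716 loci, 42 (0.330%) had as low a ratio. Its level is low, since 13.7% of these loci had a lower control value, and the promoter window with the GGAATG match shown above belongs to it.

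*Fbln2*, a large fibulin of basement membranes and of the border between elastin and microfibrils, lies at chr6:91212764-91272540 on the plus strand. It measured 15.97 FPKM in controls against 23.95 FPKM in mutants, a log2 ratio of 0.58 that is 1.499-fold before rounding. It passed the threshold at 0.63 with equal totals and at 0.59 with ratios centred on the median of all loci, so its call depends on the scaling. *Fbln1*, the other large fibulin, lies at chr15:85205875-85286294 on the plus strand and measured 98.3 and 92.0 FPKM, a log2 ratio of -0.09. *Fbln1* was the second most abundant member in both genotypes, and it was nearly level while *Fbln2* was higher and *Fbln5* and *Fbln7* were lower in the mutants.

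The summed fibulin mRNA thus differed little, while the shares of its less abundant genes *Fbln2*, *Fbln5* and *Fbln7* differed more. The hemicentin genes, also listed as fibulins, were not counted. With the fibulins *Efemp1* (fibulin-3) and *Efemp2* (fibulin-4, which carries lysyl oxidase to tropoelastin) counted in, 6 fibulin genes summed to 194.4 FPKM in controls against 191.8 FPKM in mutants. *Fbln2* made up 8.22% of this sum in control and 12.5% in mutant lungs. *Fbln5* made up 3.22% and 1.47%, and *Fbln7* 1.27% and 0.346%. *Fbln2* thus stood at 2.55 per *Fbln5* in control and 8.47 in mutant lungs. *Fbln1* and *Efemp2* together hold most of the sum in both genotypes.

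**Figure D3:**
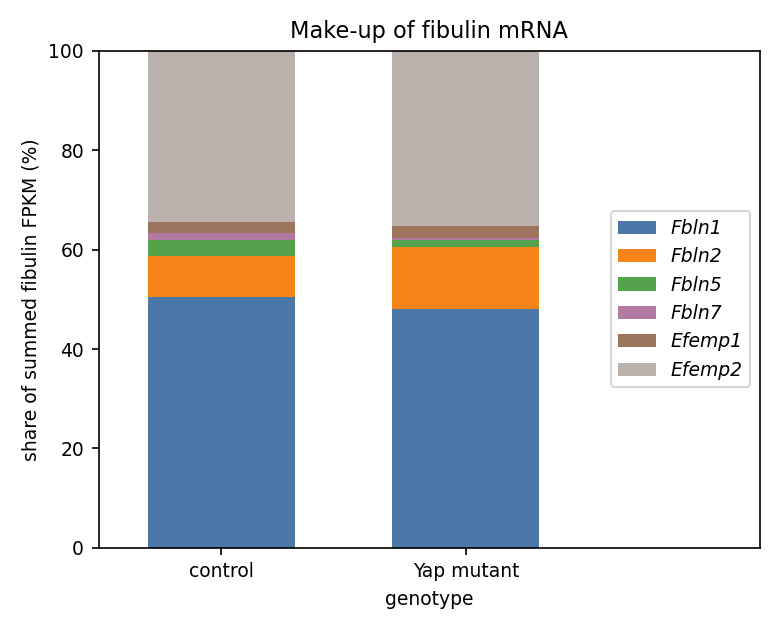
Share of each of 6 fibulin genes in their summed FPKM (percent) in control and *Yap* mutant lungs at 12.5 *dpc*. *Fbln2* widens from 8.22% to 12.5% and *Fbln5* narrows from 3.22% to 1.47%, while *Fbln1* and *Efemp2* stay the main parts of both bars.

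Among the microfibril-associated genes, *Mfap4* encodes a fibrinogen-like glycoprotein that binds tropoelastin and fibrillin. It lies at chr11:61485444-61488704 on the plus strand and was the most abundant member in both genotypes, with 143.3 FPKM in controls against 100.6 FPKM in mutants. Its log2 ratio was -0.51, as low as that of 519 loci (4.08%), and its difference of -42.8 FPKM was the largest of the group. *Mfap4* and *Eln* kept a similar proportion, at 1.94 *Mfap4* per *Eln* in control and 1.90 in mutant lungs. *Mfap5* encodes a small glycoprotein of microfibrils (MAGP-2) and lies at chr6:122513676-122529287 on the plus strand. It was barely detected, at 0.852 FPKM in controls against 1.12 FPKM in mutants, and its log2 ratio of 0.39 rests on the lowest levels of the group.

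Summed over the 10 members, the level was 475.6 FPKM in controls against 401.3 FPKM in mutants, or 84.4% of control. *Mfap4* and *Eln* account for most of this gap. The order of levels differed little: *Mfap4*, *Fbln1* and *Eln* led in both genotypes, *Fbn1*, *Fbln2* and *Fbln5* kept their places, and *Lox* with *Fbn2* and *Fbln7* with *Mfap5* exchanged theirs. All 10 are annotated as protein-coding genes, with at most 6 exons in a *Mfap4* transcript and at most 66 in a *Fbn1* transcript. *Eln*, *Lox*, *Fbn1* and *Fbn2* each overlap 1 gene on the opposite strand. Libraries were stranded, but whether strand was used in counting is not given in the sources used here, so reads of such a partner cannot be separated.

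Other genes of the elastic fibre were taken from 8 lists by role, with 43 genes, of which 42 had a locus. Of these 42 loci, 32 averaged 1 FPKM or more, and 16 of them were higher and 16 lower in the mutants, with a median log2 ratio of 0.00. Past 1.5-fold were 1 higher gene, *Emilin2*, and 2 lower genes, *Emilin3* and *Thsd4*. These counts of 1 and 2 among 32 loci are too small to set apart from the background of 4.61% higher and 3.46% lower loci.

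Emilins are glycoproteins at the elastin and microfibril interface. *Emilin2* had 2.91 FPKM in controls against 7.54 FPKM in mutants, a log2 ratio of 1.37. *Emilin3* had 25.7 and 12.8 FPKM, or 50.1% of control, so these 2 emilins went in opposite directions. *Emilin1*, at a locus shared with *Khk*, was the most abundant emilin listed and nearly level, at 73.8 and 68.4 FPKM. *Mfap2*, which encodes the microfibril glycoprotein MAGP-1 and had the highest level of all pathway genes listed, had 197.2 FPKM in controls against 192.5 FPKM in mutants. *Mfap4* was thus lower relative to *Mfap2*, at 0.727 in control and 0.523 in mutant lungs.

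*Thsd4* encodes an ADAMTS-like protein (ADAMTSL6) that promotes fibrillin-1 assembly, and had 11.5 FPKM in controls against 6.84 FPKM in mutants, a log2 ratio of -0.75. The other 5 genes of its list averaging 1 FPKM or more were not past the threshold, with *Adamts10* the most abundant at 29.7 and 31.1 FPKM. Of 3 other fibulin genes, 0 were past it, and *Efemp2* had 67.1 and 67.7 FPKM. None (0) of 3 latent TGF-beta binding protein genes was past it, with *Ltbp4* the most abundant at 26.4 and 20.6 FPKM.

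Of 6 other lysyl oxidases and activators averaging 1 FPKM or more, 0 were past the threshold. Of these 6, 5 lay below and 1 above the control value, beside 51.8% of all loci below it, and their median log2 ratio was -0.17. Among them *Bmp1*, whose protease activates pro-lysyl oxidase, had 65.4 FPKM in controls against 58.1 FPKM in mutants. Both elastin chaperone genes were higher by less than the threshold, with the more abundant, *Fkbp10*, at a log2 ratio of 0.07. Proteoglycan genes were not past the threshold, with *Bgn* (biglycan), the most abundant, at 76.5 and 73.0 FPKM. *Dcn* was higher at a log2 ratio of 0.22 and *Vcan* lower at -0.14.

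Of 8 elastase genes, *Mmp7*, *Mmp12* and *Elane* were listed at 0 in both genotypes, and 3 averaged 1 FPKM or more, with 0 past the threshold. *Mmp2*, a gelatinase of mesenchymal cells that also cleaves elastin, was by far the most abundant, with 117.0 FPKM in controls against 105.9 FPKM in mutants. *Ctsk* and *Ctss* were higher, at log2 ratios of 0.53 and 0.28.

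**Figure D4:**
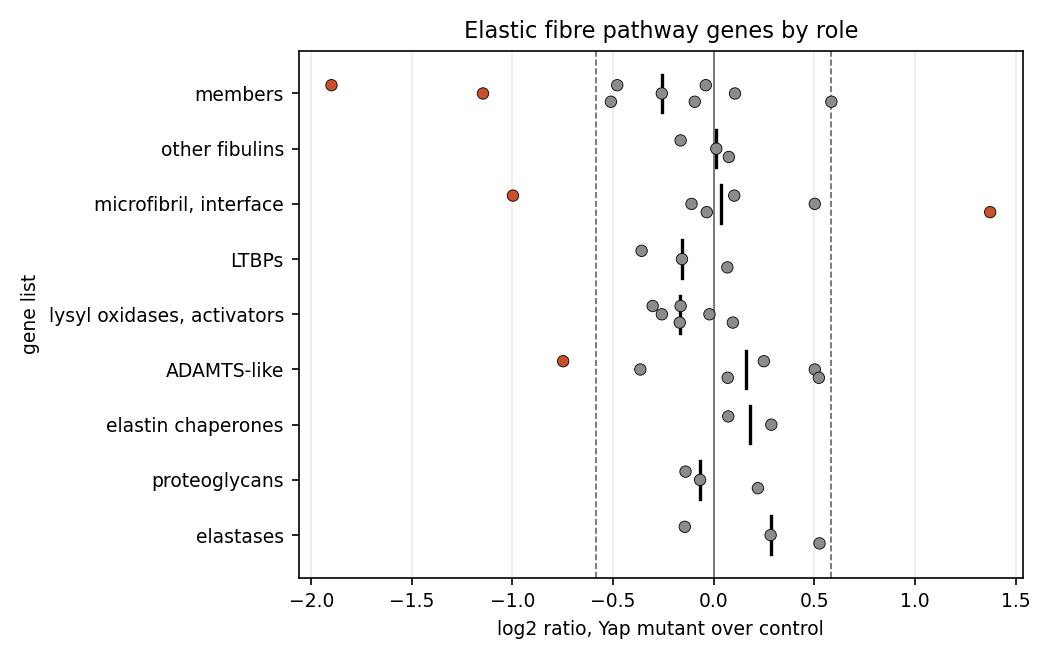
Log2 ratio of *Yap* mutant over control for the members and for 8 lists of other elastic fibre genes, loci that average 1 FPKM or more only (points), with list medians (black bars) and dashed lines at 1.5-fold. Red points are past the threshold: *Fbln7* and *Fbln5* among the members, *Emilin3* and *Emilin2* in the microfibril and interface list, and *Thsd4* among the ADAMTS-like genes.

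Markers of cells that make elastic fibre proteins also differed between the genotypes. Of 9 smooth muscle markers, 8 averaged 1 FPKM or more, of which 5 were lower and 1 was higher past 1.5-fold, with a median log2 ratio of -1.06. Their summed level was 312.2 FPKM in controls against 165.1 FPKM in mutants, or 52.9% of control. *Actg2* (gamma smooth muscle actin) had the lowest ratio, at 68.0 and 13.1 FPKM, and *Acta2* the highest level, at 125.2 and 59.9 FPKM. The higher marker was *Des* (desmin), which striated muscle also makes, at 17.6 and 37.7 FPKM. Most of these markers were lower alongside *Eln*, *Fbln5*, *Fbln7* and *Mfap4*, as were the summed cartilage and epithelium markers given below. The part of any of these cell types in those values was not tested.

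Cardiac muscle markers were all higher, 9 of 9 past 1.5-fold beside 4.61% of all loci, with a median log2 ratio of 3.27. *Myh7*, *Nppa*, *Nkx2-5* and *Ryr2* averaged 1 FPKM or more through their mutant values alone, so the filter favoured a higher call for them. The median is the ratio of *Myh7*, at 0.316 and 3.06 FPKM. The summed level of the 9 markers was 99.5 FPKM in controls against 676.4 FPKM in mutants. *Nppa* had 0.581 and 57.9 FPKM, and *Myl7* had 39.3 and 305.9 FPKM. The *Myl7* value of mutant lungs is 87.8 FPKM in the deposited table of changed loci. *Fbln2*, which the developing heart also expresses, was higher in the same samples, as was *Emilin2*, and the part of heart tissue in their values was not tested.

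General mesenchyme markers went both ways, with 1 higher and 2 lower past 1.5-fold among 10 loci of 9 genes, a median log2 ratio of 0.03 and sums of 1283 FPKM in controls against 1279 FPKM in mutants. *Col3a1* was the most abundant, at 376.4 and 371.0 FPKM, and *Fgf10* the furthest from level, at 10.4 and 26.6 FPKM. The lower loci were *Foxf1*, at 83.5 and 41.6 FPKM, and the lesser of the 2 *Tcf21* loci, at 3.70 and 1.96 FPKM. The main *Tcf21* locus was also lower, short of the threshold, at 57.4 and 39.2 FPKM, a log2 ratio of -0.55. *Fbn1*, *Fbn2* and *Fbln1*, which mesenchymal cells make broadly, lay within 0.11 of level on the log2 scale. Cartilage markers summed to 75.7 FPKM in controls against 50.5 FPKM in mutants, with 4 of 4 loci of sufficient level lower, 2 of them past 1.5-fold, and *Col2a1* at 35.1 and 24.7 FPKM. *Acan*, the furthest from level, was low at 0.116 and 0.0446 FPKM, and *Matn1* was listed at 0 in both genotypes.

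Endothelium and mesothelium markers held 0 loci past the threshold, with medians of 0.17 over 8 loci and 0.31 over 4 loci. Their most abundant genes were *Cldn5*, at 47.9 and 55.0 FPKM, and *Upk3b*, at a log2 ratio of 0.31. The genes furthest from level were *Tie1*, at a log2 ratio of 0.25, and *Msln*, which was low at 0.0843 and 0.263 FPKM. Epithelium markers summed to 381.6 FPKM in controls against 285.3 FPKM in mutants, with 7 of 10 lower and 1 higher past 1.5-fold. The higher marker was *Sftpc*, at 28.4 and 55.8 FPKM. *Sox2*, at 9.65 and 2.91 FPKM, was the furthest from level, and *Cldn6*, at 98.0 and 64.7 FPKM, the most abundant. *Nkx2-1*, the lung epithelial factor, was lower past the threshold, with 61.9 FPKM in controls against 35.9 FPKM in mutants. *Tbx4*, the lung mesenchymal factor, had 54.3 FPKM in controls against 59.2 FPKM in mutants.

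**Figure D5:**
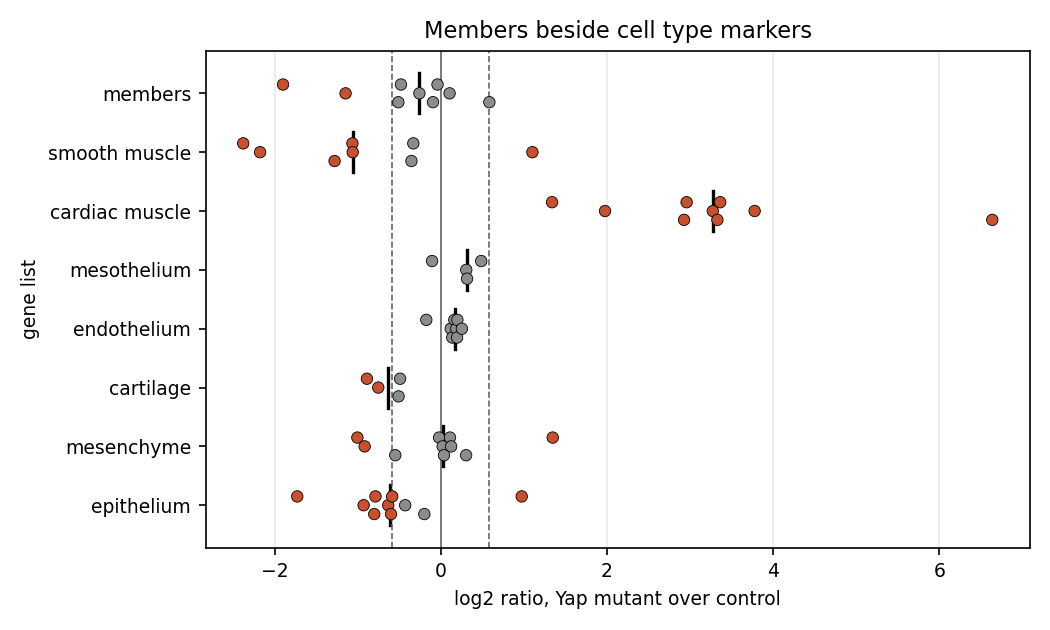
Log2 ratio of *Yap* mutant over control for the members and for 7 lists of cell type markers, loci that average 1 FPKM or more only (points, red when past 1.5-fold), with list medians (black bars) and dashed lines at 1.5-fold. Smooth muscle markers centre at -1.06, cardiac markers at 3.27 and mesenchyme markers at 0.03.

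The deleted gene itself, *Yap1*, had 76.1 FPKM in controls against 65.6 FPKM in mutants, a value over the whole locus in tissue whose mesenchyme keeps *Yap*, so it checks the deletion only weakly. Y-linked *Ddx3y*, *Eif2s3y*, *Kdm5d* and *Uty* were at most 0.0163 FPKM in control lungs and at least 4.61 FPKM in mutant lungs, and *Xist* was at 97.0 and 50.4 FPKM. These values come from the table of all loci. In the table of changed loci the mutant value is 1.11 FPKM for *Kdm5d* and 4.61 FPKM for *Uty*, the latter being the value of *Kdm5d* in the table of all loci. Embryo sex and genotype cannot be told apart in these samples.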

How the data were processed

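RNA of whole lungs at 12.5 *dpc* from 3 wild-type and 3 *Yap* mutant samples was sequenced by the authors as stranded paired-end libraries on HiSeq instruments. The submitters' processing notes name TopHat, Cuffdiff and mm10 (GRCm38), without versions. The FPKM values in the deposited tables were made by the authors, 1 per genotype, and the unit is read from the Cuffdiff layout. The deposited tables also hold the authors' log2 fold changes and p-values, which were not used, and the table of changed loci served only as an alternative source of FPKM.

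Log2 ratios were computed here from the FPKM values with no pseudocount, with Python 3.11.15, numpy 2.4.6, pandas 2.3.3 and matplotlib 3.10.9. Loci needed a mean of at least 1 FPKM and a 1.5-fold difference to be counted. The counting rule was run on simulated 2-fold differences with an assumed noise, which checks the code and not the calls made here. Depth and precision per sample are unknown. Locus starts have 1 added, since they count from 0. Promoter windows came from RefSeq (GRCm38.p6) and were used for 5 of the 10 members. Windows on chr18, where *Fbn2* and *Lox* lie, were left out beforehand.

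Members and lists were chosen with earlier results of these data known. Besides the members, genes were named when past the threshold in a pathway list, or when the most abundant or furthest from level in a list. *Nkx2-1*, *Tbx4*, *Foxf1*, *Tcf21*, *Des*, *Matn1*, *Efemp1* and the elastases at 0 were named after their values were seen. Alternatives were another pseudocount, filter, fold, scaling or table.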

Additional observations from a re-analysis of the deposited data

How the results depend on the processing

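With 1 value per genotype, precision cannot be estimated and leaving out replicates was not run. No paired analysis was possible because the value columns carry no replicate numbers. The count of higher members went from 0 to 1 (*Fbln2*) with equal totals, with centring on the median of all loci and at a threshold of 0.32 on the log2 scale. The count of lower members was 4 at 0.32 and 0 with a mean of at least 5 FPKM, since *Fbln5* and *Fbln7* then leave the table. The members' median log2 ratio was -0.13 with equal totals and -0.094 with a mean of at least 5 FPKM. Other pathway genes came to 5 higher and 4 lower among 32 loci at 0.32, where 9.99% of all loci were higher and 6.95% lower. They came to 3 higher and 4 lower with no filter and 0 lower at 2-fold. No share over all loci was computed for those settings. Equal totals shift each log2 ratio by 0.04, and centring on the mesenchyme markers, added after seeing the data, by 0.03 the other way. Of 60 values of single members compared, 57 stayed on their side of 0 and of the threshold. The exceptions were *Fbn2* (0.00) and *Fbln2* (0.63) with equal totals and *Fbln2* (0.59) with centring. These 60 do not include the filter and fold alternatives, and the scaling alternatives moved all members by the same small shift. The table of changed loci gave the same value for every member, so that alternative could not move them. The deposited tables differed by over 1% at 25 loci, 0 of them members.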
